A study of Mus musculus with 12 samples.

Results

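The genes described here are 10 members of the negative feedback and readout of ERK signalling, namely the MAP kinase phosphatases Dusp4, Dusp5 and Dusp6, the Sprouty genes Spry1, Spry2 and Spry4, the Sprouty-related genes Spred1 and Spred2, and the ETS transcription factor genes Etv4 and Etv5. They were taken by symbol, as every probe set annotated to exactly 1 of these genes, which gave 28 probe sets among the 35041 probe sets with 1 gene, or 10 genes among 18193. Of the 28, 14 were on each array of a pair of Affymetrix mouse arrays, here called chip A (MOE430A) and chip B (MOE430B). The number per gene ran from 1 for Dusp4, Dusp5, Dusp6 and Spry1 to 8 for Spred1.

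RNA came from J1 mouse embryonic stem (ES) cells and from embryoid bodies, the floating aggregates in which ES cells start to differentiate. The ES cells had spent 2 days on gelatin in medium with LIF (leukemia inhibitory factor), sodium pyruvate and β-mercaptoethanol. The embryoid bodies had grown for 5 days in Petri dishes of the bacterial kind with none of these additions, and both states had 10% serum. Each state had 3 replicates, and each replicate had an array of each chip. No genetic change is named for either state. By visual judgement the ES samples were 95% pure according to the labels, with DR4 feeder cells as the contaminating type, while the labels give no purity for the embryoid bodies. Whether replicates came from separate cultures is not stated in the labels, so p-values measure only how far these samples spread, which may be technical.

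ERK is the last kinase of the cascade that fibroblast growth factors (FGFs) start at the cell surface through Ras, Raf and MEK. Active ERK switches on genes whose products damp the same cascade. Sprouty and Spred proteins act near the membrane on Ras and Raf, and the Dusp phosphatases remove the activating phosphates from ERK itself. Etv4 and Etv5 carry the signal on to transcription and are widely used as readouts of FGF signalling. In mouse ES cells, autocrine FGF4 acting through ERK is known to prepare cells for differentiation.

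The genes did not move as a block. Dusp6, Spry1 and 1 of the 2 probe sets of Spry2 rose in embryoid bodies, and Etv5 fell on all 3 of its probe sets, by 2.19-fold to 2.93-fold. Spry4 and Etv4 had lower mean signals in embryoid bodies on each of their probe sets, but none of these passed the test. Dusp4, Dusp5, Spred1 and Spred2 did not pass either. A probe set is called risen or fallen when its limma p-value, adjusted over all probe sets of the chip, was under 0.05. On chip A 5 of 14 probe sets passed, against 6.30% of all probe sets of that chip, with 3 risen (3.39% of all) and 2 fallen (2.91% of all). On chip B 1 of 14 passed, against 10.7% of all probe sets there, with 0 risen by limma (5.78% of all) and 1 fallen (4.91% of all). An unadjusted limma p under 0.05 was reached by 8 of 14 probe sets on chip A, in both directions. On chip B it was reached by 4 of 14, all with negative changes. The share of all probe sets with such a p was not counted, and it is at least the 6.30% and 10.7% that passed after adjustment. No excess of members can be read from these unadjusted counts. The median log2 change was 0.02 over the 14 probe sets of chip A and -0.22 over those of chip B, and -0.05 and -0.00 over all probe sets of each chip.

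The upstream sequences of 7 of the 10 genes were matched in RefSeq (build GRCm38.p6), as 8 windows of 250 bases that end just before a gene start, since Etv5 has 2 starts there. They were searched on both strands for the letters TGAATG and TCAATG, the core of the sites bound by Capicua (CIC). CIC is a repressor that ERK signalling inactivates, and Etv5, Etv4 and Dusp6 are among its known targets. The windows of the called genes with such letters are printed 5′ to 3′ on the gene's strand, with the matches in capitals. They are chosen because Dusp6 and 1 Spry2 probe set rose while Etv5 fell. Dusp6 is shown at chr10:99262981-99263230 (plus strand), Spry2 at chr14:105896820-105897069 (minus strand) and Etv5, at the downstream of its starts, at chr16:22438369-22438618 (minus strand).
Dusp6: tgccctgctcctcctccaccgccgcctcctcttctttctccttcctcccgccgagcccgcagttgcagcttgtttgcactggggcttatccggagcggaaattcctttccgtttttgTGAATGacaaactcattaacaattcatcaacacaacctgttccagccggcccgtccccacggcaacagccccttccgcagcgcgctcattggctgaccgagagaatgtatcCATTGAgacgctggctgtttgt
Spry2: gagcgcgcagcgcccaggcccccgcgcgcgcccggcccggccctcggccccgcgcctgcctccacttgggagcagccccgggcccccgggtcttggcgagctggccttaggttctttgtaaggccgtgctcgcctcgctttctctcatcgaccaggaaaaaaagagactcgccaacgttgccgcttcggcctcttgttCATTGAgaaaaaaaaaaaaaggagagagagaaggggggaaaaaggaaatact
Etv5: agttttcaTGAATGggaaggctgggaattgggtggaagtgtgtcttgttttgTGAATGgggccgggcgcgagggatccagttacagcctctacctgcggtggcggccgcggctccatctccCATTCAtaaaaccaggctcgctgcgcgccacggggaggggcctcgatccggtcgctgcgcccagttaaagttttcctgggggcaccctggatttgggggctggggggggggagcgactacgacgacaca

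The Etv5 window held 3 matches, all TGAATG, and 0.314% of all 32851 windows of this length held 3 or more matches to either core. The Dusp6 window held 1 TGAATG and 1 TCAATG, and 2.28% of all windows held 2 or more. Spry2 had 1 TCAATG, and 17.0% of all windows held at least 1 match to either core. The window of Spry1, which also rose, had no match to either, nor had the windows of Spred1, Spred2 and the upstream start of Etv5. Such matches are descriptions of these letters and not measured sites, and genes that rose and a gene that fell both carried them. An ETS core, CCGGAA (in 12.0% of all windows), and the cyclic AMP response element TGACGTCA (1.55%) were also searched on both strands and were in none of the 8 windows. The motifs were chosen after the sequences had been read.

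Dusp5 had a different layout, shown at chr19:53528895-53529144 (plus strand) because it was the member with the widest spread between arrays. Its window held 2 adjacent CArG boxes, the site of serum response factor, which works with ERK-activated ETS partners, and 1 TGAATG on the other strand (all in capitals). A CArG box was found in 1.47% of all windows, and 2 or more in 0.0183%. This motif too was chosen after the sequences had been read, so these shares are descriptions only. A link between these letters and the spread between arrays was not tested.
Dusp5: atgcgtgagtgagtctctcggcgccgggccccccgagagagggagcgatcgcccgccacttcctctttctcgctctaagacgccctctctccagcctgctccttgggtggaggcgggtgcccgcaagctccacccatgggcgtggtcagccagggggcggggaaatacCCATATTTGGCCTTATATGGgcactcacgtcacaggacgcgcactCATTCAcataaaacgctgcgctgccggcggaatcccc

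**Figure D1:**
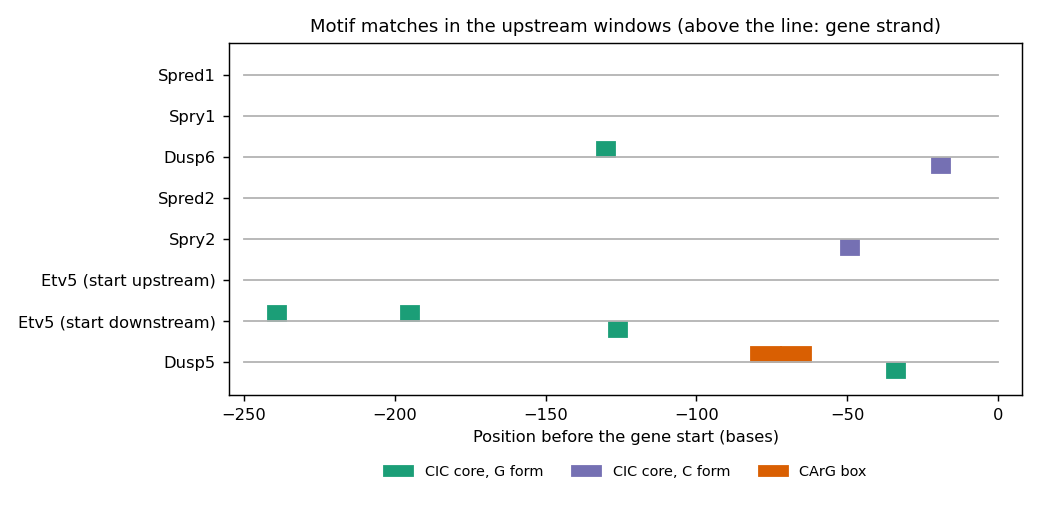
Positions of matches in the 8 upstream windows, in bases before the gene start (x axis), with 1 line per window and boxes above the line for the gene's strand and below it for the other strand. Green and purple boxes are the CIC core with G or C as its second letter, and the orange box of Dusp5 holds its 2 adjacent CArG boxes. Etv5's downstream start carries 3 matches, Dusp6 carries 2, and Spred1, Spry1, Spred2 and the upstream start of Etv5 carry none.

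The labels were checked first on marker genes. Pou5f1, a core pluripotency factor, averaged 14603 ± 1879.9 in ES cells and fell to 7688 ± 236 (SD, n = 3, limma adjusted p = 0.00783). Zfp42, a naive pluripotency marker, read 11168, 13478 and 4392 in ES replicates 1 to 3 and 1638, 3198 and 2981 in the embryoid bodies, and Nanog, with a log2 change of -0.16, did not pass. The summed signal of 9 ES cell markers lay between 55085 and 76028 in the ES arrays and between 30832 and 32792 in the embryoid bodies. That of 23 feeder fibroblast markers lay between 57152 and 74361 and between 18156 and 22318, with 0 risen, 10 fallen and 13 not called. Among their 5 defining markers none was at 0 in all arrays of a group, and only Col1a1 passed. Col1a1 went from 4923 ± 1554 to 48.6 ± 20.2 and Col1a2 from 5437 ± 1841 to 2503 ± 714. Col3a1 went from 956 ± 588 to 245 ± 134, Lum from 432 ± 56.5 to 281 ± 54.6 and Prrx1 from 465 ± 12.1 to 289 ± 237. The mean of each of these 5 markers was lower in embryoid bodies, as it was for every gene described below as fallen. Array by array this did not always hold, since Prrx1 in embryoid body replicate 3 (482) lay above every ES array. The part of feeder cells in those falls was not tested. In such bulk RNA, fewer cells of a type and less RNA per cell cannot be told apart. Array medians ran from 589 to 681 on chip A and from 913 to 1001 on chip B. Chip lot and scan day separated the groups on both chips, so neither can be told apart from the culture state. The fluidics position of the wash station was shared by 2 ES and embryoid body pairs on chip A and by all 3 pairs on chip B, and differences within a position are given for the genes that passed.

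Among the phosphatases, Dusp6, the cytoplasmic phosphatase selective for ERK, rose. Its MAS5 signal was 1804, 1126 and 2739 in ES replicates 1 to 3 and 3799, 4091 and 8464 in embryoid body replicates 1 to 3. Every embryoid body array lay above every ES array, and embryoid body replicate 3 stood far above the others. The log2 change, taken on signal plus a pseudocount of 137, was 1.45 ± 0.35 (SE), or 2.73-fold, with a limma adjusted p of 0.0397. Within shared fluidics positions the difference was 1.12 for ES replicate 1 and embryoid body replicate 2 and 2.77 for ES replicate 2 and embryoid body replicate 3. The call was lost on leaving out any array but ES replicate 3, with adjusted p from 0.0684 to 0.115, and the change was 1.09 without embryoid body replicate 3. It was also lost with quantile normalization (0.0526), a pseudocount at the chip median (0.0531) and no intensity trend (0.0876).

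Dusp4, a nuclear phosphatase of ERK and of the related kinases JNK and p38, was measured on chip B only. Its signals were 2952, 2906 and 4067 in ES cells and 4399, 4425 and 4822 in embryoid bodies. The groups did not overlap, but the log2 change of 0.45 (95% interval from -0.02 to 0.91) did not pass, with a limma adjusted p of 0.196.

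Dusp5, a nuclear phosphatase specific for ERK, had signals of 2466, 566 and 1280.3 in ES cells and 709, 676 and 3612 in embryoid bodies. The groups overlapped widely, with ES replicate 1 and embryoid body replicate 3 each far above the others of its group. Its log2 change of 0.01 had a 95% interval from -1.33 to 1.34, wide enough to hold a change of 2-fold either way. Without embryoid body replicate 3 the change was -0.67, and without ES replicate 2 it was -0.43.

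Of the Sprouty genes, Spry1 and 1 Spry2 probe set rose and Spry4 did not pass, and a difference between the genes was not tested. Spry1, an inhibitor of receptor tyrosine kinase signalling upstream of Ras, had the smallest p among the members that rose. Its signals were 2225, 2567 and 2254 in ES cells and 3919, 5150.5 and 6655 in embryoid bodies. The ES arrays lay close together, the embryoid body arrays were spread, and the groups did not overlap. The log2 change was 1.08 ± 0.19 (SE), or 2.12-fold, with a limma adjusted p of 0.0131. It was 1.16 and 1.33 within the shared fluidics positions. The adjusted p was 0.0538 without embryoid body replicate 2 and 0.0578 without ES replicate 1.

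Spry2, a close relative that also binds the ubiquitin ligase Cbl, had 2 probe sets on chip A that differed. On probe set 1436584_at the signals were 4104, 4201 and 4112 in ES cells and 5379, 6252 and 6809 in embryoid bodies, with no overlap. This was a rise of 1.46-fold (log2 change 0.55 ± 0.14, SE, limma adjusted p = 0.0467), just inside the threshold. The differences within fluidics positions were 0.59 and 0.68. The call was lost on leaving out any array (adjusted p from 0.0542 to 0.154), with quantile normalization, a pseudocount of 1, no intensity trend, fluidics position as a block or the replicate number as a block (0.0846). Probe set 1421656_at, whose means were 541 ± 144 and 573 ± 13.1 (SD, n = 3), gave a log2 change of 0.09 with a 95% interval from -0.52 to 0.69.

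Spry4, which inhibits the same pathway, had a negative log2 change on all 4 probe sets and passed on none. On chip B, probe set 1440867_at read 7154, 7860.0 and 4755 in ES cells and 4411, 4411 and 3965 in embryoid bodies. These groups did not overlap, and ES replicate 3 lay close to the embryoid bodies (log2 change -0.57, 95% interval from -1.06 to -0.08, limma adjusted p = 0.123). On chip A, probe set 1422021_at read 885, 1609 and 250.5 in ES cells and 86.8, 116 and 399 in embryoid bodies, for a log2 change of -1.50 with an adjusted p of 0.141. Probe set 1422020_at read 568, 848 and 128 against 64.8, 278 and 73.3, for a log2 change of -1.13 with an adjusted p of 0.220. ES replicate 3 was the lowest ES array on all 4 probe sets, and on 40.8% of all probe sets of chip A and 35.1% of chip B. Over all chip A probe sets, the SD of its log2 difference was 0.54 from ES replicate 1 and 0.63 from ES replicate 2. From the embryoid body arrays it was 0.60 to 0.65, so this array was about as far from ES replicate 2 as from them. Without ES replicate 3 both chip A probe sets passed, at log2 changes of -2.10 and -1.68 with adjusted p of 0.0271 and 0.0394. With fluidics position as a block 1422021_at passed as well, at -1.86 and 0.0426. That fit compares only the 2 chip A pairs that share a position, so it too leaves ES replicate 3 out of the comparison and is not a separate check. The remaining probe set, 1445669_at, gave a log2 change of -0.09 with a 95% interval from -0.96 to 0.78.

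**Figure D2:**
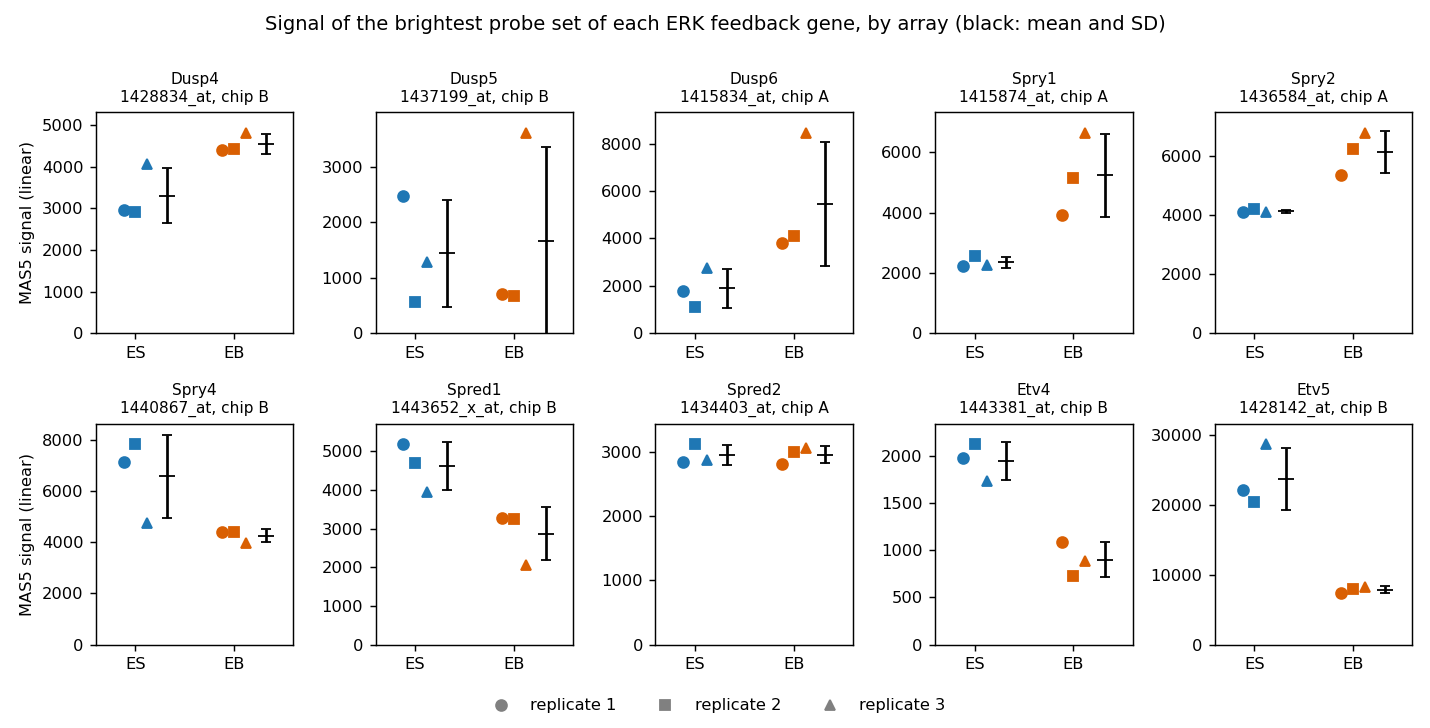
MAS5 signal on a linear axis (y) in each ES and embryoid body (EB) array for the brightest probe set of each of the 10 genes, with replicates 1 to 3 as circle, square and triangle and the mean and SD in black (n = 3). Dusp4, Dusp6, Spry1 and Spry2 lie higher in all EB arrays and Etv4, Etv5, Spry4 and Spred1 lower, while Dusp5 and Spred2 overlap. Of these, Dusp4, Etv4, Spry4 and Spred1 did not pass the test. The Spred1 panel shows 1443652_x_at, whose change was opposite in sign to the other 7 probe sets of that gene. The axis starts at 0 and ends the lower SD bar of Dusp5 in the EB arrays.

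Spred1 and Spred2 carry neurofibromin to the membrane, where it turns Ras off, and none of their 13 probe sets passed. The 8 probe sets of Spred1 had log2 changes from -0.66 to 0.64, and 7 of the 8 were positive. On probe set 1423161_s_at the signals were 1014, 997 and 1455 in ES cells and 1494, 1629 and 1574 in embryoid bodies, which did not overlap (log2 change 0.41, 95% interval from -0.04 to 0.87). On probe set 1443652_x_at, of a class of probe sets that can bind transcripts of other genes, they were 5195, 4699 and 3948 in ES cells and 3275, 3249 and 2069.9 in embryoid bodies. Those groups did not overlap in the other direction (log2 change -0.66, 95% interval from -1.19 to -0.13, limma adjusted p = 0.102). The dimmest probe set, 1445228_at, read from 73.1 to 118 in ES cells and from 148 to 253 in embryoid bodies, around or under the chip B pseudocount of 253. The probe sets of Spred1 thus disagreed in direction, and no call rested on any of them.

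Spred2 was measured with little spread on 1 of its probe sets. Its probe set 1434403_at read 2847, 3135 and 2880.2 in ES cells and 2825, 3001 and 3077 in embryoid bodies. The groups overlapped fully, and the log2 change of 0.01 had a 95% interval from -0.30 to 0.32. The other 4 probe sets ran from -0.22 to -0.40, with limma adjusted p from 0.386 to 0.770. Among them only 1441802_at, with 327 ± 146 for the ES arrays and 184 ± 31.1 for the embryoid bodies (SD, n = 3), had groups that did not overlap.

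Etv5, an ETS factor that FGF and ERK signalling switch on, fell on all 3 probe sets. On chip B, probe set 1428142_at read 22116, 20395 and 28809 in ES cells and 7329.6, 7962 and 8272 in embryoid bodies. The embryoid body arrays agreed closely, and every one lay far below the ES arrays. The log2 change was -1.55 ± 0.18 (SE), that is 2.93-fold lower (limma adjusted p = 0.00174), and the call was kept on leaving out any array. Within the 3 shared fluidics positions it was -1.56, -1.33 and -1.77.

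On chip A, Etv5 probe set 1420998_at read 5458, 5786 and 5558 in ES cells and 1718, 2797 and 3159 in embryoid bodies (log2 change -1.13 ± 0.21, SE, limma adjusted p = 0.0145). Probe set 1450082_s_at read 6713, 6447 and 4341 against 1472, 2546 and 2388 (log2 change -1.40 ± 0.23, SE, limma adjusted p = 0.0102). Neither overlapped between the groups, and within fluidics positions they differed by -0.93 and -0.85 and by -1.35 and -1.38. Without ES replicate 1 their adjusted p were 0.0572 and 0.0511, and both passed on leaving out any other array. The 3 probe sets were read on RNA of the same samples and are not independent.

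Etv4, the relative of Etv5 in the PEA3 group of ETS factors, had negative log2 changes on both probe sets and did not pass. On chip B it read 1986, 2131 and 1731 in ES cells and 1093, 727 and 882 in embryoid bodies, with no overlap (log2 change -0.94, 95% interval from -1.60 to -0.28, limma adjusted p = 0.0697). On chip A it read 1096, 979.5 and 406 in ES cells and 193, 186 and 634 in embryoid bodies. There ES replicate 3 lay below embryoid body replicate 3 (log2 change -1.06, 95% interval from -2.05 to -0.07, adjusted p = 0.193).

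**Figure D3:**
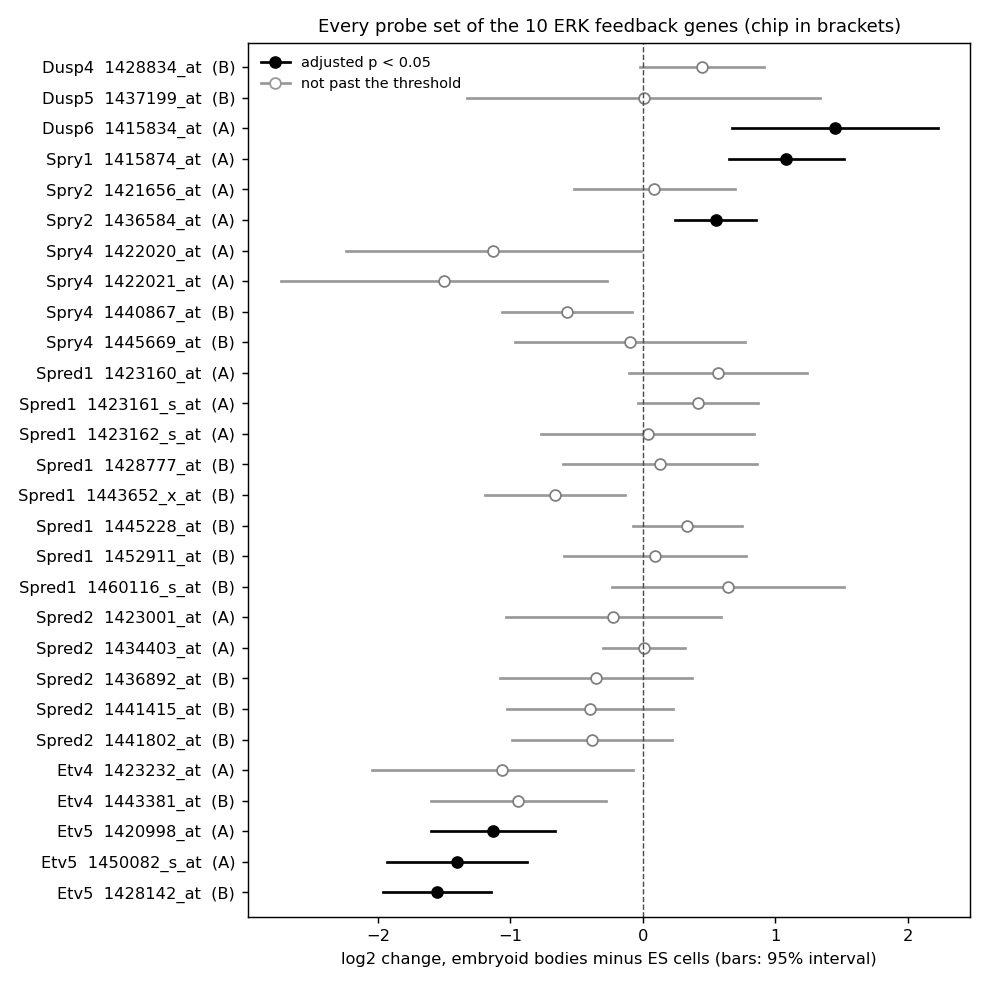
Log2 change from ES cells to embryoid bodies (x axis, signal plus pseudocount) for all 28 probe sets, with 95% intervals of the limma fit and the chip in brackets. Filled points passed an adjusted p of 0.05, which are Dusp6, Spry1 and 1 Spry2 probe set to the right and the 3 Etv5 probe sets to the left.

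Groups that did not overlap were found for 6 of 14 probe sets on chip A, against 27.2% of all probe sets there, with 4 higher in embryoid bodies (13.1% of all) and 2 lower (14.0% of all). On chip B it was 7 of 14 against 33.5%, with 2 higher (17.3% of all) and 5 lower (16.2% of all). The embryoid body replicates were ordered alike for many members on chip A. Embryoid body replicate 3 was the highest of its group for 10 of 14 probe sets, while it was the highest for 34.7% of all probe sets, and replicate 1 was the lowest for 11 of 14 against 35.7%. On chip B replicate 3 was the highest for 7 of 14, against 35.1% of all probe sets, and replicate 1 the lowest for 5 of 14 against 31.0%. The 3 embryoid body arrays of chip A were scanned on 3 different days, and that of replicate 1 alone was washed on another fluidics station than the other 2. On chip B they shared 1 scan day and 1 station. Of 10 early lineage markers 3 rose (Mixl1, Foxa2 and Pax6) and 7 did not pass, and their summed signal was 12733, 9244 and 16821 in embryoid body replicates 1 to 3. Replicate 3 was the highest for 7 of the 10, but the lowest for Pax6, and the sum was lowest in replicate 2. The part of scan day, station and lineage markers in the order of the members was not tested.

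Genes with the most similar pattern to a called member were taken by the distance between log2 signals over the 6 arrays, each centred on its mean, among 12392 other genes on chip A. Nearest to Dusp6 were Nkd1, Lratd1 and Fst, at distances of 0.46, 0.49 and 0.51. Nearest to Spry1 were Hsd3b1, Mageh1 and Ptprm, at 0.21, 0.34 and 0.34. Nearest to Spry2 were Asb13, Ccdc22 and Gnb5, at 0.04, 0.13 and 0.15, none of which passed (limma adjusted p from 0.176 to 0.252). Nearest to Etv5 were Ttc39b, Akr1b8 and Slc39a14, at 0.27, 0.29 and 0.29. The distance takes in the change between the 2 groups as well as the spread within them.

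The rest of the pathway was read from lists with 1 probe set standing for each gene. Of 11 FGF ligands and receptors 0 rose, 2 fell and 9 did not pass. Fgf4, the autocrine ligand of ES cells, read 6719, 6510.5 and 4266 in ES cells and 519, 829.7 and 544 in embryoid bodies, a fall of 7.75-fold (limma adjusted p = 3.95e-04). Its other 2 called probe sets fell 5.96-fold (1420086_x_at) and 2.57-fold (1450282_at), and the call of the latter was lost on leaving out any array but ES replicate 3 (adjusted p up to 0.0861) and with no intensity trend (0.0519). Fgf17, another ligand, averaged 1902 ± 583 in the ES arrays and fell 3.28-fold to 479 ± 160.2 (SD, n = 3), with a limma adjusted p of 0.0113. That p was 0.0501 without embryoid body replicate 1 and 0.0602 without ES replicate 1. The receptor Fgfr1, at -0.23 on the log2 scale, did not pass.

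Of the 22 symbols listed for the Ras-ERK cascade 14 had a probe set of their own, and of these 1 rose, 1 fell and 12 did not pass. Gab1, a docking protein of receptor signalling, read 8269, 10052 and 5089 in ES cells and 2729, 4437 and 2135 in embryoid bodies, a fall of 2.47-fold (limma adjusted p = 0.0315), and its other 2 called probe sets fell 2.68-fold and 2.84-fold. Ptpn11, the phosphatase SHP2 needed for Ras activation, rose 1.62-fold, from 3105 ± 268 to 5123 ± 672 (adjusted p = 0.0276). Map2k1, the kinase MEK1, was at 0.20 on the log2 scale and did not pass. Other probe sets of Sos1 and Braf, named after their values were seen, had log2 changes of 0.96 and -0.85 on chip B with adjusted p of 0.0383 and 0.0333, while the standing probe sets of both genes on chip A did not pass at -0.23 and -0.32. The call of the named Gab1 probe set was lost without ES replicate 1 or 2 or embryoid body replicate 1 or 3 (adjusted p up to 0.113), those of its other 2 were lost at least without ES replicate 1 or embryoid body replicate 1 or 3 (up to 0.0861), and that of Ptpn11 without ES replicate 1 or 2 or embryoid body replicate 1 or 2 (up to 0.123). The call of Braf was lost without any 1 array (up to 0.0947), and that of Sos1 without any but embryoid body replicate 2 (up to 0.124). With fluidics position as a block the adjusted p was 0.0856 for Ptpn11 and 0.0635 for Braf, and with the replicate number as a block 0.0570 and 0.0635. With no intensity trend the calls of Ptpn11 (0.0854), Sos1 (0.0828), Braf (0.0574) and 2 Gab1 probe sets (0.0791 and 0.0556) were lost.

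Of the other 7 MAP kinase phosphatases none passed on its standing probe set by limma, while 1 of 7 had an unadjusted p under 0.05. No share over all probe sets was counted for that threshold either. Dusp1, the brightest, gave a log2 change of -0.10 with a 95% interval from -0.70 to 0.51, whose sign changed with fluidics position as a block and without embryoid body replicate 2 or ES replicate 3. Another probe set of Dusp8, 1447346_s_at on chip B, named after its values were seen, rose 4.03-fold, from 399.6 ± 59.5 to 2641 ± 1571 (SD, n = 3, limma adjusted p = 0.0172). That call was lost without ES replicate 1 or embryoid body replicate 3 (0.0510 and 0.0611).

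Of 7 other inhibitors of the pathway 1 rose. Spry3, the remaining Sprouty gene, read 108, 82.4 and 175 in ES cells and 1334, 456 and 714 in embryoid bodies, a rise of 2.76-fold on the log2(signal + 253) scale (limma adjusted p = 0.0335). Its ES signals lay below the pseudocount, and the call was lost on leaving out any array but embryoid body replicate 2 (up to 0.103). Spred3, at 0.15 on the log2 scale, did not pass.

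Of 14 ERK-responsive genes 1 rose, 1 fell and 12 did not pass. Phlda1, induced by growth factor signalling, rose 2.31-fold, from 799 ± 247 to 2005 ± 403 (SD, n = 3, limma adjusted p = 0.0222). Ccnd1, the cyclin that drives entry into the cell cycle, fell from 6529 ± 588 to 3086 ± 391, or 2.07-fold (adjusted p = 0.00539), and its second probe set fell 2.23-fold. Ier2, an immediate early gene and the brightest that did not pass, had a log2 change of 0.23. The call of Phlda1 was lost without ES replicate 1 or 2 or embryoid body replicate 2 or 3 (adjusted p up to 0.0900), and that of the second Ccnd1 probe set without ES replicate 1 or 2 or embryoid body replicate 1 or 2 (up to 0.116), with fluidics position as a block (0.0528) and with no intensity trend (0.0698).

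**Figure D4:**
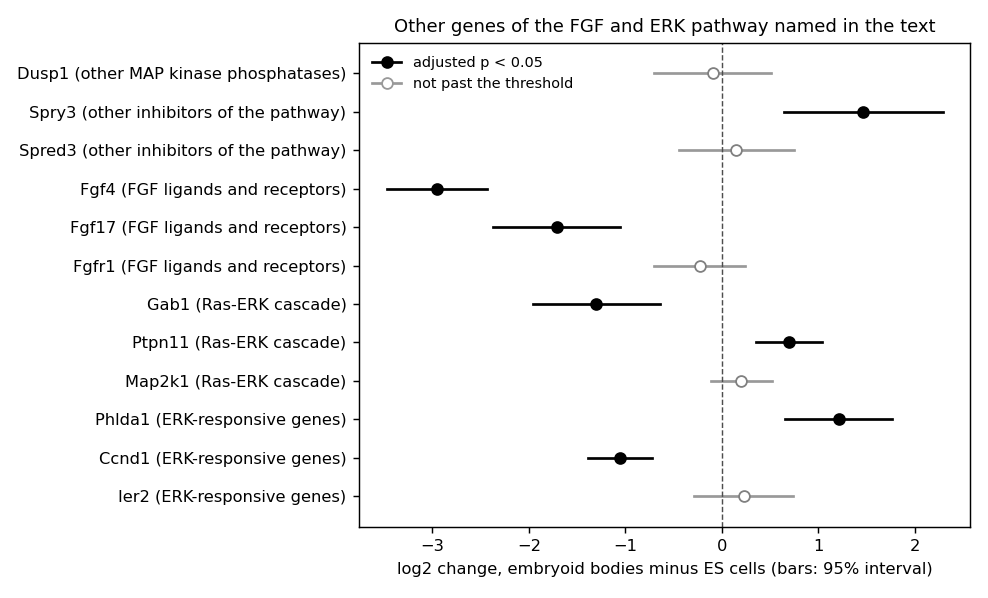
Log2 change from ES cells to embryoid bodies (x axis, signal plus pseudocount) with 95% intervals for the 12 other pathway genes named by rule, with their list in brackets. Filled points passed an adjusted p of 0.05. Fgf4 and Fgf17 lie farthest to the left, Spry3 and Phlda1 farthest to the right, and the intervals of Fgfr1, Map2k1, Dusp1, Spred3 and Ier2 cross 0.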

How the data were processed

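The deposited tables held, per the submitters' processing notes, MAS5 signals of each probe set (an intensity on a linear scale, version not given in the sources used here), with a trimmed mean of about 1500.5 on chip A and 1500.1 on chip B, so the authors had scaled the arrays to a common target. The deposited run information of each array gave chip lot, fluidics position and scan day. Detection calls were not used here. After leaving out 64 control probe sets per chip, 22626 and 22511 were tested.

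Each chip was fitted on its own on log2(signal + pseudocount), the pseudocount being the 20th percentile of the chip (137 and 253), with limma 3.58.1 in R 4.3.3 (lmFit, eBayes with an intensity trend) and Benjamini-Hochberg adjustment over all probe sets. This scale understates changes of low signals. The fit was tested on simulated data with independent noise and no effect of chip lot, scan day or fluidics station. That test therefore does not bear on such effects in these arrays. Only 3 arrays per group limit the precision.

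Names came from the platform annotation: 20380 probe sets of chip A had 1 gene, 691 several and 1555 none, and 14661, 245 and 7605 on chip B. Gene identifiers of 20351 and 14486 matched the reference table, and 0 symbols changed. Standing probe sets were taken from chip A before chip B, then not ending in _x_at, then by highest mean. All member probe sets were named, as were 3 pluripotency markers and the defining feeder markers. So were, per list, up to 4 called genes and the brightest uncalled one, and the 3 genes nearest to each called member. Members and lists were chosen with earlier results of these data known.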

Additional observations from a re-analysis of the deposited data

How the results depend on the processing

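The settings varied were a threshold of 0.01, leaving out each array, scaling by the median or by quantiles, pseudocounts of 1 or the median of the chip, leaving out dim probe sets, omitting the intensity trend, and blocks for fluidics position or replicate number. On chip A the fluidics block compares only the pairs that share a position, without ES replicate 3 and embryoid body replicate 1. A random block for scan day (chip A) was added after seeing the data. On chip B each group had 1 scan day, so that fit was not possible there. The fall of Etv5 on chip B passed under all of them. On chip A, 3 member probe sets rose and 2 fell. The number risen was 1 with quantile normalization, 1 with no intensity trend, 0 at a threshold of 0.01 and 0 to 2 without 1 array. The number fallen was 0 at 0.01 and 0 without ES replicate 1, up to 4 without ES replicate 3. Over all probe sets, 1425 were called on chip A, 844 with no trend, 2243 with the scan day block, 342 at 0.01 and 434 to 2092 without 1 array. On chip B 2407 were called, 564 at 0.01 and 934 to 1806 without 1 array. Same-numbered replicates were not paired, since the correlations of their deviations from the group means ran from -0.11 to 0.08 on chip A and from -0.03 to -0.02 on chip B. With the replicate number as a block 1136 were called on chip A, with 2 members risen and 2 fallen, and 2107 on chip B, where it equals the fluidics position.

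Among uncalled probe sets the sign changed, at values near 0 or with 1 array left out, and never with a call. With fluidics position as a block the log2 change was -0.0178 for Spry2 1421656_at and 0.18 for Dusp1. Dusp5 was at -0.0372 after median scaling, -0.0255 after quantile normalization and -0.0145 with a pseudocount of 1, and Spred2 1434403_at at -0.00492 after quantile normalization. Without 1 array the ranges were -0.67 to 0.43 for Dusp5, -0.0332 to 0.25 for Spry2 1421656_at, -0.39 to 0.16 for Spry4 1445669_at, -0.45 to 0.10 for Spred2 1423001_at, -0.0188 to 0.0482 for Spred2 1434403_at, and -0.24 to 0.33, -0.12 to 0.38 and -0.10 to 0.19 for Spred1 1423162_s_at, 1428777_at and 1452911_at. They were -0.27 to 0.19 for Dusp1 and -0.0337 to 0.39 for Ier2. The causes were not tested. Over member probe sets and alternatives, 378 values kept direction and side of the threshold, 21 changed sign, 28 lost a call and 3 gained one. Only called probe sets could lose a call, and the 378 include values of uncalled probe sets that stayed uncalled. They therefore do not measure how firm the calls are.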
